A study of Arabidopsis thaliana with 6 samples.

Results

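The nuclear genes of the photosystems, their light-harvesting antennae and the thylakoid electron transport chain were followed in Arabidopsis thaliana Columbia-0 (wild type) after hydrogen peroxide (H2O2), a reactive oxygen species. The set was a list of 49 loci, namely LHCA1 to LHCA6, LHCB1.1 to LHCB6, 12 photosystem I (PSI) and 10 photosystem II (PSII) genes, and PETC, PETE1, PETE2, FNR1, FNR2, ATPC1 and ATPD. The rule for membership was the gene's name, and no measured value entered it, although earlier results of these data were known when the list was made. Of these 49, 41 had a row in the deposited table of 21430 loci, and all 41 passed the filter on low values that left 15001 for testing. LHCA2, all 5 LHCB1 genes (LHCB1.1 to LHCB1.5), LHCB2.1 and LHCB2.2 were not analysed here, so the major antenna protein of PSII is represented only by LHCB2.3 and LHCB3.

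Seedlings grew in liquid medium for 7 days and then spent 24 h with 10 mM H2O2, or with an equal volume of water (mock). Each group had 3 arrays, and each array held RNA pooled from 4 to 5 plants. The tissue is labelled leaf, although the source is labelled seedling. The values are log2 signals, so a difference of 1 is 2-fold.

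In oxygenic photosynthesis, PSII takes electrons from water and passes them through the cytochrome b6f complex and plastocyanin to PSI, which reduces ferredoxin, and ferredoxin-NADP+ reductase (FNR) then makes NADPH. The proton gradient built on the way drives the chloroplast ATP synthase. Chlorophyll-binding LHC proteins surround both photosystems and feed them light energy. The reaction centre cores are mostly encoded in the plastid, whereas the antennae and most peripheral subunits are encoded in the nucleus, where light, plastid signals and the GLK transcription factors control their expression.

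Array medians were 5.70 to 5.74 (log2) for H2O2 and 5.66 to 5.71 for mock. Arrays of the same group correlated at 0.995 to 0.997 over all loci (Pearson, with genes as points and not as replicates), and arrays of different groups at 0.951 to 0.958. No label states that the pools of a group were grown apart, and the p-values therefore cover the spread among pools, whether technical or biological. Among 221 loci whose values equalled those of another locus on every array, none was a member of the set, so none of the 41 rows is a copy of another. Whether probe sets of close paralogues pick up each other's transcripts was not tested. Green tissue markers were present, with RCA (rubisco activase) at 12.52 ± 0.09 in H2O2 and 12.81 ± 0.07 in mock (SD, n = 3 each). Root markers were present too, and PYK10, a root beta-glucosidase gene, stood at 11.96 ± 0.11 in H2O2 and 12.02 ± 0.05 in mock (SD, n = 3 each).

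The comparison of H2O2 with mock asks how transcripts differ after a day of oxidative treatment. Of the 41 genes, 37 (90.2%) fell at an adjusted p under 0.05 in limma, none rose and 4 did not pass. Across all 15001 probe sets 36.5% were called lower, 23.9% higher and 60.4% in either direction. For probe sets with means of 10 to 11, 11 to 12 and 12 or more, 51.1%, 53.2% and 55.1% were called lower. These shares include the members themselves, which raise them. Members were 16 of the 49 probe sets with means of 12 or more, and 14 of those 16 were called lower. The decreases were mostly small. The median log2 change over the 41 genes was -0.39 (1.31-fold lower), against -0.10 over all probe sets tested. Only LHCA6 and ATPD fell at least 2-fold, as 4.14% of all probe sets did, and no member rose at least 2-fold, as 7.63% of all did. All 3 H2O2 arrays lay below all 3 mock arrays for 40 of 41 genes, against 40.7% of all probe sets, and the exception was LHCB2.3. No member had all H2O2 arrays above mock, against 26.6% of all. The paired fit with the replicate block also called 37 members lower, against 38.0% of all. In pooled tissue, fewer green cells and less of these transcripts per cell cannot be told apart.

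How many of these decreases pass depends on how the arrays are scaled. Of 7 commonly used reference genes with a row, 4 were themselves lower in H2O2 and none was higher, and their median change was -0.22. AT4G33380, AT4G26410 and ACT2 fell by 0.48, 0.37 and 0.26. Centring each array on the mean of these 7 genes raised the median change of all probe sets by 0.24, to 0.15. After that centring 14 of the 41 genes (34.1%) remained lower, against 18.0% of all probe sets, and none was called higher (40.5% of all were). The H2O2 arrays then lay entirely below mock for 19 of the 41, against 21.1% of all. With quantile normalization 24 of 41 (58.5%) were called lower, against 36.6% of all. Centring each array on its median went the other way, with 38 of 41 lower (LHCB5 joined them), against 38.9% of all. The 14 genes lower under all 4 scalings were LHCA5, LHCA6, LHCB4.2, LHCB6, PSAD2, PSAE2, PSAH2, PSBO2, PSBQ1, PSBQ2, PSBY, PETE1, FNR2 and ATPD. Measured against the median of all probe sets, the median of the 41 genes lay at a log2 difference of -0.30 on the deposited scaling. After quantile normalization that difference was -0.19. Centring shifts all genes of an array by the same amount, so it cannot change that difference. Further on, "fell" refers to the deposited scaling, and the genes that lost their call with reference gene centring or quantile normalization are named with their complex. Median centring ended none of the 37 calls.

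**Figure D1:**
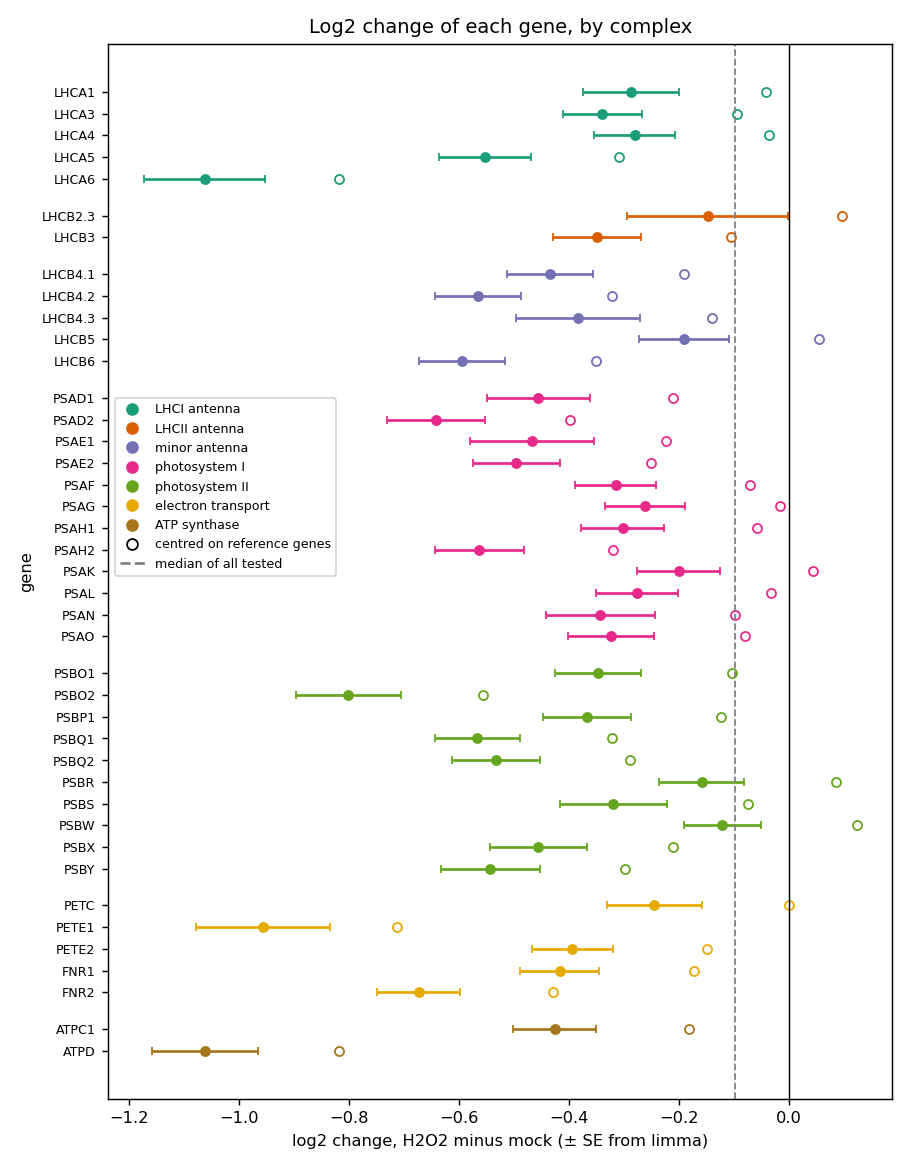
Log2 change (H2O2 minus mock) of the 41 genes, 1 row each and coloured by complex. Filled points with bars are the change and its SE on the deposited scaling, open points the change after centring on 7 reference genes, and the dashed line the median of all probe sets on the deposited scaling (-0.10). All filled points lie left of the dashed line, and 6 open points lie at or right of 0.

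All 5 LHCI antenna genes with a row fell, over a range of -1.06 to -0.28, against 36.5% of all probe sets called lower. With reference gene centring 2 of the 5 remained lower, against 18.0% of all. LHCA1, LHCA3 and LHCA4, which form the crescent of antenna proteins on PSI, fell by 0.28 to 0.34. LHCA5 and LHCA6, minor relatives known as the linkers that join PSI to the chloroplast NDH complex, fell by 0.55 and 1.06. LHCA6 (AT1G19150) stood at 7.43, 7.54 and 7.12 on the 3 H2O2 arrays, against 8.42, 8.47 and 8.38 in mock. Its H2O2 arrays thus lay clear of mock by more than their own range, and it was 2.09-fold lower (log2 change -1.06, SE 0.11, adjusted p = 7.46e-05).

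LHCA5 (AT1G45474) had values of 8.92, 9.03 and 8.84 in H2O2, against 9.58, 9.42 and 9.44 in mock. It was 1.47-fold lower (log2 change -0.55, SE 0.08, adjusted p = 0.000632). For comparison, LHCA3 (AT1G61520) had 12.52, 12.52 and 12.48 in H2O2 and 12.88, 12.88 and 12.77 in mock, a tight pair of groups only 1.26-fold apart (adjusted p = 0.00359). LHCA1 (AT3G54890) and LHCA4 (AT3G47470) were 1.22-fold and 1.21-fold lower. The calls of LHCA1, LHCA3 and LHCA4 were lost with reference gene centring (log2 changes of -0.04, -0.09 and -0.04) and after quantile normalization. LHCA1 also lost its call without H2O2 replicate 3 (adjusted p = 0.0601) and without mock replicate 1 or 2 (adjusted p = 0.066 and 0.0568).

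Of the LHCII antenna, the trimers that make up the bulk of the PSII antenna, LHCB3 (AT5G54270) fell and LHCB2.3 (AT3G27690) did not pass. LHCB3 stood at 12.33, 12.35 and 12.17 in H2O2 and at 12.69, 12.61 and 12.59 in mock, a 1.27-fold difference (adjusted p = 0.00551) that was lost with reference gene centring (-0.10) and quantile normalization (-0.16). LHCB2.3 had values of 8.81, 8.74 and 8.32 in H2O2, against 8.94, 8.80 and 8.57 in mock. Its groups overlapped, and replicate 3 was the lowest array of both. The change of LHCB2.3 was -0.15 (SE 0.15, adjusted p = 0.41), and it was 0.01 without H2O2 replicate 3 and 0.10 with reference gene centring.

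The minor antenna proteins CP29 (LHCB4), CP26 (LHCB5) and CP24 (LHCB6) connect the trimers to the PSII core. LHCB6 (AT1G15820) had the largest change among their genes. It stood at 11.50, 11.46 and 11.32 in H2O2 and between 11.99 and 12.07 in mock, and was 1.51-fold lower (log2 change -0.59, SE 0.08, adjusted p = 0.000298). The 3 LHCB4 genes all fell, with log2 changes of -0.43 for LHCB4.1 (AT5G01530), -0.57 for LHCB4.2 (AT3G08940) and -0.38 for LHCB4.3 (AT2G40100). LHCB4.3 had a mean of 5.90 ± 0.21 in H2O2 and 6.29 ± 0.09 in mock (SD, n = 3 each). It lost its call without mock replicate 1 (adjusted p = 0.0568).

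LHCB5 (AT4G10340) was the minor antenna gene that did not pass (log2 change -0.19, SE 0.08, adjusted p = 0.0748), although its H2O2 arrays at 12.60, 12.53 and 12.48 all lay below mock at 12.80, 12.77 and 12.61. Centring on the reference genes gave LHCB5 a change of 0.05, and quantile normalization gave 0.05. It passed without mock replicate 3 (-0.25, adjusted p = 0.0433), with median centring (-0.22, adjusted p = 0.0371) and, like PSBR, with a trended and robust prior (adjusted p = 0.0219). LHCB4.1 and LHCB4.3 lost their calls with reference gene centring (-0.19 and -0.14) and kept them with quantile normalization.

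All 12 nuclear PSI genes fell, with a median log2 change of -0.33 and a range from -0.64 to -0.20. Of all probe sets 36.5% were called lower. In the ranges of means that held these genes (10 to 11, 11 to 12, and 12 or more) it was 51.1% to 55.1%. The genes of PSAD and PSAE, in the stromal ridge where ferredoxin docks, had changes from -0.64 to -0.46. PSAD2 (AT1G03130) had values of 10.99, 11.03 and 10.75 in H2O2, against 11.56, 11.55 and 11.58 in mock, and was 1.56-fold lower (log2 change -0.64, SE 0.09, adjusted p = 0.000388). PSAD1 (AT4G02770), PSAE1 (AT4G28750) and PSAE2 (AT2G20260) were 1.37-fold, 1.38-fold and 1.41-fold lower.

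PSAH, at the side where LHCII docks on PSI during state transitions, is encoded by 2 genes, and both fell. PSAH2 (AT1G52230) stood at 12.02, 11.87 and 11.84 in H2O2, against 12.54, 12.46 and 12.41 in mock (log2 change -0.56, SE 0.08). PSAH1 (AT3G16140) stood at 11.11, 11.18 and 11.08 in H2O2, against 11.42, 11.50 and 11.35 in mock (log2 change -0.30, SE 0.08). PSAL (AT4G12800) and PSAO (AT1G08380), which lie on that same side, were lower by log2 changes of -0.28 and -0.32.

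PSAF (AT1G31330) and PSAN (AT5G64040), which serve plastocyanin docking on the lumen side, had log2 changes of -0.31 and -0.34. PSAG (AT1G55670) and PSAK (AT1G30380), at the rim of the core, had the smallest changes of the 12. PSAK was at 12.77, 12.69 and 12.61 in H2O2 and at 12.93, 12.88 and 12.86 in mock. Its 1.15-fold difference only just passed (adjusted p = 0.047) and was lost in 8 of the 16 alternatives: no filter, array weights, reference gene centring, and without mock replicate 1, 2 or 3 or H2O2 replicate 2 or 3. With reference gene centring PSAK changed by 0.04, and of the 12 genes only PSAD2, PSAE2 and PSAH2 remained lower. That was 25% of the 12, against 18.0% of all probe sets. PSAF, PSAG, PSAH1, PSAL, PSAN and PSAO lost their calls with quantile normalization as well, and PSAG also without mock replicate 2 (adjusted p = 0.0537).

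Of 10 PSII genes, 8 fell, with a median log2 change of -0.41. Their means lay in the same ranges as those of the PSI genes, where 51.1% to 55.1% of all probe sets were called lower. The oxygen-evolving complex, whose extrinsic proteins shield the manganese cluster that splits water, held the PSII gene with the largest change. PSBO2 (AT3G50820), a gene of the manganese-stabilizing protein, had values of 10.25, 10.15 and 9.94 in H2O2, against 10.91, 10.85 and 10.98 in mock. The gap between the groups was larger than the range within either. PSBO2 was 1.74-fold lower (log2 change -0.80, SE 0.10, adjusted p = 0.000165).

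PSBO1 (AT5G66570), its paralogue, had 11.70, 11.68 and 11.52 in H2O2 and 11.98, 12.01 and 11.94 in mock, and was 1.27-fold lower (adjusted p = 0.00502). Both genes of PSBQ fell, with log2 changes of -0.57 for PSBQ1 (AT4G21280, also named PSBQA) and -0.53 for PSBQ2 (AT4G05180). PSBP1 (AT1G06680) had a change of -0.37. PSBR (AT1G79040), which helps to anchor PSBP, did not pass (-0.16, adjusted p = 0.108). It passed with a trended and robust prior (adjusted p = 0.0358), and its change was 0.09 with reference gene centring.

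PSBS (AT1G44575, also named NPQ4), the sensor of lumen acidity that switches on heat dissipation, stood at 10.74, 10.79 and 10.48 in H2O2 and at 11.05, 10.99 and 10.93 in mock. Its 1.25-fold difference (adjusted p = 0.0205) was lost with reference gene centring (-0.07), after quantile normalization (-0.23), without moderation (adjusted p = 0.0637), and without mock replicate 1 or 2 (adjusted p = 0.0613 and 0.0544). Among the small membrane subunits, PSBX (AT2G06520) and PSBY (AT1G67740) fell by 0.46 and 0.54, while PSBW (AT2G30570) did not pass.

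PSBW was at 11.54, 11.52 and 11.55 in H2O2 and at 11.71, 11.65 and 11.61 in mock, groups that did not overlap but lay close together (log2 change -0.12, SE 0.07, adjusted p = 0.166). Its change was 0.12 after centring on the reference genes and 0.03 after quantile normalization, and PSBW passed without moderation (adjusted p = 0.0325). PSBO2, PSBQ1, PSBQ2 and PSBY were the PSII genes that remained lower with reference gene centring, 40% of the 10 against 18.0% of all probe sets. PSBO1, PSBP1 and PSBX lost their calls there and kept them with quantile normalization.

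The electron carriers between and after the photosystems all fell, against 36.5% of all probe sets called lower. PETE1 (AT1G76100), a plastocyanin gene, had values of 8.81, 9.10 and 8.61 in H2O2, against 9.77, 9.88 and 9.75 in mock. It was 1.94-fold lower (log2 change -0.96, SE 0.12, adjusted p = 0.00024), the largest change among the carriers, and H2O2 replicate 3 was its lowest array. PETE2 (AT1G20340, also named DRT112), the other plastocyanin gene, had 12.47, 12.35 and 12.40 in H2O2 and 12.86, 12.79 and 12.75 in mock, and was 1.31-fold lower (adjusted p = 0.00201).

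PETC (AT4G03280), which encodes the Rieske iron-sulfur protein of the cytochrome b6f complex, had the smallest change of the carriers, at -0.24 (SE 0.09, adjusted p = 0.0363). Its call was lost without any 1 of mock replicates 1 to 3 or H2O2 replicate 3 (adjusted p up to 0.0993), without moderation, with reference gene centring (0.00) and after quantile normalization (-0.12). PETC kept it with median centring (-0.27, adjusted p = 0.0193). The leaf FNR genes both fell. FNR2 (AT1G20020) stood at 10.22, 10.10 and 10.07 in H2O2, against 10.84, 10.75 and 10.81 in mock (log2 change -0.67, SE 0.08, adjusted p = 0.000121).

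FNR1 (AT5G66190) stood at 10.24, 10.20 and 10.13 in H2O2, against 10.64, 10.62 and 10.57 in mock, and was 1.33-fold lower (adjusted p = 0.00124). FNR1 and PETE2 lost their calls with reference gene centring (-0.17 and -0.15), and PETE2 also with quantile normalization (-0.18).

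Both nuclear genes of the ATP synthase catalytic part on the list fell, against 36.5% of all probe sets called lower. ATPD (AT4G09650), the delta subunit, had 10.16, 10.32 and 9.98 in H2O2, against 11.26, 11.22 and 11.17 in mock. Its lowest mock array thus exceeded its highest H2O2 array by more than the range within either group, and it was 2.09-fold lower (log2 change -1.06, SE 0.10, adjusted p = 3.73e-05). ATPC1 (AT4G04640), the gamma subunit carrying the redox switch of the enzyme, had 11.60, 11.60 and 11.53 in H2O2 and 12.02, 11.91 and 12.07 in mock. ATPC1 was 1.34-fold lower (adjusted p = 0.00153), a call lost with reference gene centring (-0.18).

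Paralogues of the same subunit were set against each other within each array. That difference does not move when arrays are centred, and it was compared between groups for the 10 pairs in which both genes had a row. The exact two-sided permutation test over 3 against 3 arrays cannot go below p = 0.1, so no pair can pass. It left the pairing of arrays by replicate number aside, and with that pairing the exact test cannot go below 0.25. The groups did not overlap for 6 pairs, each at an exact permutation p of 0.1 (0.167 after Benjamini-Hochberg adjustment over the 10 pairs). How often the groups lie apart for the difference of other pairs of genes was not counted. Among single probe sets, the H2O2 arrays lay below mock for 40.7% and above mock for 26.6%.

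The widest of these differences was that of plastocyanin. PETE1 minus PETE2 averaged -3.56 ± 0.28 in H2O2 and -3.00 ± 0.09 in mock (SD, n = 3 each), a difference in log2 change of -0.56 (SE 0.17). For the manganese-stabilizing protein, PSBO2 minus PSBO1 averaged -1.52 ± 0.07 in H2O2 and -1.07 ± 0.10 in mock, a difference of -0.45 (SE 0.07). Such a difference describes unequal change of signal and not which paralogue is more abundant, since probe sets differ in brightness. PETE1 and PSBO2 had means of 9.32 and 10.51 over the 6 arrays, against 12.60 for PETE2 and 11.81 for PSBO1. The part of signal level in the unequal change was not tested. With quantile normalization the differences were -0.74 for plastocyanin and -0.48 for the manganese-stabilizing protein.

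Smaller differences without overlap were found for PSAH2 minus PSAH1 (-0.26, SE 0.08), FNR2 minus FNR1 (-0.26, SE 0.04), PSAD2 minus PSAD1 (-0.19, SE 0.03) and LHCB4.1 minus LHCB4.2 (0.13, SE 0.02). The paralogue with the larger decrease in these 6 pairs was PETE1, PSBO2, PSAH2, FNR2, PSAD2 or LHCB4.2. PSAH2 and FNR2 had the higher mean signal of their pair, and the others the lower. The groups overlapped for PSAE2 minus PSAE1 (-0.03, SE 0.09, exact p = 0.9), PSBQ2 minus PSBQ1 (0.03, SE 0.04, exact p = 0.5), LHCB4.3 minus LHCB4.1 (0.05, SE 0.09, exact p = 0.6) and LHCB4.3 minus LHCB4.2 (0.18, SE 0.09, exact p = 0.2).

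**Figure D2:**
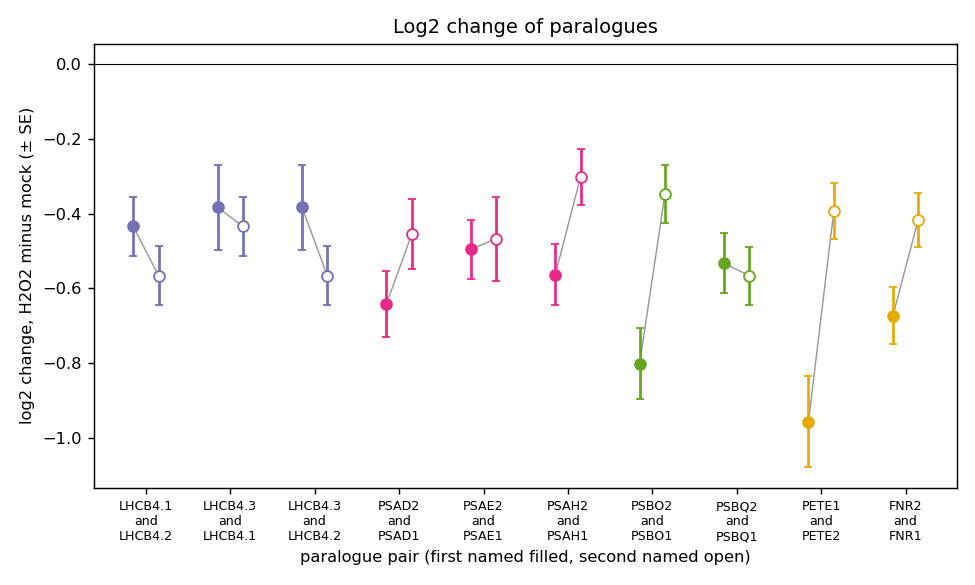
Log2 change (H2O2 minus mock, with SE from limma) of the 2 genes of each of 10 paralogue pairs, the first named filled and the second open. The longest connecting lines are those of PETE1 and PETE2 and of PSBO2 and PSBO1, while the PSAE and PSBQ pairs are nearly level.

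Most of these genes were lowest on the same array of a group. Their mean log2 value was 11.17, 11.14 and 10.99 on H2O2 replicates 1 to 3, and 11.58, 11.55 and 11.50 on mock replicates 1 to 3. H2O2 replicate 3 was the lowest array of its group for 36 of 41 genes, and mock replicate 3 for 32 of 41. The share of all probe sets that were lowest on replicate 3 was not counted, so this order may not be particular to these genes. The mean of the reference genes did not share that order, at 8.60, 8.69 and 8.64 on the H2O2 arrays and 8.88, 8.88 and 8.90 on the mock arrays. The array medians, however, were lowest on replicate 3 in both groups. They were 5.72, 5.74 and 5.70 on the H2O2 arrays and 5.71, 5.71 and 5.66 on the mock arrays. The part of array-wide shifts in the order of these genes was not tested. Leaving out H2O2 replicate 3 ended the calls of LHCA1, PSAK and PETC and left 34 genes lower, and over all 6 single omissions 32 to 37 genes were lower.

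**Figure D3:**
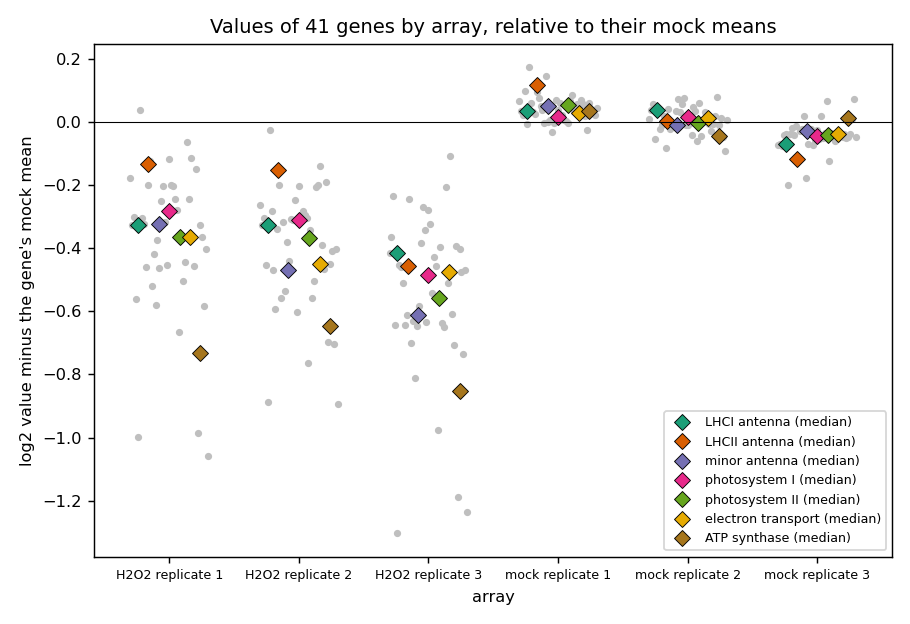
Log2 value of each of the 41 genes on each array minus that gene's mock mean (grey points), with the median of each complex as diamonds, H2O2 arrays left of mock arrays. The H2O2 arrays sit below the mock arrays for nearly all genes, and on H2O2 replicate 3 every complex median is at its lowest.

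Signal strength and change were related among these genes. Across the 41 probe sets the mean log2 value over the 6 arrays and the log2 change had a Pearson r of 0.43 and a Spearman rho of 0.51, whereas over all 15001 probe sets r was -0.06. These points share the same arrays and are not independent. The 16 genes with a mean of 12 or more had a median change of -0.32, and the 12 genes with a mean under 11 a median of -0.56. The highest value on any array was 13.15, so the brightest genes lay close to the top of the observed values, and the level at which signal saturates is not known. Over all probe sets the median change was -0.05 for means under 6 (29.2% called lower) and -0.24 for means of 10 to 11 (51.1% called lower). Of all 49 probe sets with a mean of 12 or more, these 16 genes among them, 55.1% were called lower, with a median change of -0.21. The part of signal range in the smaller changes of bright genes was not tested.

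**Figure D4:**
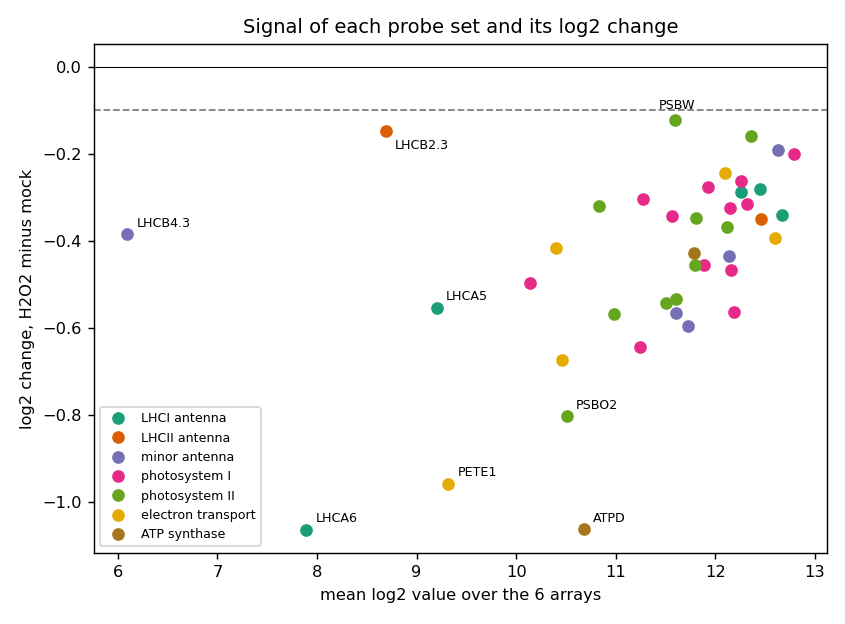
Mean log2 value over the 6 arrays (horizontal) against log2 change (vertical, H2O2 minus mock) for the 41 genes, coloured by complex. The dashed line is the median change of all probe sets (-0.10), and the genes with the largest decreases, LHCA6, ATPD, PETE1 and PSBO2, have means under 11.

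Other genes of the thylakoid membrane and its assembly, taken from lists made by name, gave a setting for these values. The counts of each list stand beside 36.5% of all probe sets called lower and 23.9% called higher. Among 25 other nuclear thylakoid proteins 17 fell and 8 did not pass. None rose, and the median change was -0.43. TIC62 (AT3G18890), which tethers FNR in the chloroplast, fell 2.07-fold, VDE1 (violaxanthin de-epoxidase, also named NPQ1) 1.73-fold and the thylakoid curvature gene CURT1C 1.65-fold. With reference gene centring 10 of the 25 were lower and 2 higher, against 18.0% and 40.5% of all probe sets.

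All 8 measured nuclear genes of the chloroplast NDH complex, which returns electrons from ferredoxin to plastoquinone, fell, with a median of -0.90 and a range from -1.25 to -0.67. NDHN fell 2.37-fold, PNSB3 2.05-fold and NDHL 2.00-fold, and all 8 remained lower with reference gene centring. LHCA6 and LHCA5, which link that complex to PSI, had changes of -1.06 and -0.55, LHCA6 thus within the range of the NDH genes and LHCA5 outside it, while LHCA1, LHCA3 and LHCA4 lay at -0.28 to -0.34. That setting side by side was chosen after the values were seen, and the difference was not tested.

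Of 10 factors that insert or assemble photosystem and antenna proteins, 8 fell and 2 did not pass, with a median of -0.69. PAM68 (a PSII assembly factor) fell 1.94-fold, AT1G22700 1.83-fold and Y3IP1 (also named CEST) 1.67-fold. With reference gene centring 7 of the 10 were lower.

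Regulators went both ways, with 6 of 10 lower, 1 higher and 3 not passing. With reference gene centring 3 were lower (SIG2, SIG4 and SIG6) and 2 higher (SIG5 and HY5), and SIG3 lost its call (adjusted p = 0.593). Of all probe sets, 18.0% were lower and 40.5% higher with that centring. GLK2 (AT5G44190), an activator of antenna genes, stood at 7.69, 7.60 and 7.22 in H2O2, against 8.27, 8.20 and 7.90 in mock (1.53-fold lower, SE 0.14 log2, adjusted p = 0.00576). Its relative GLK1 (AT2G20570) was 1.29-fold lower (adjusted p = 0.00708). Both calls were lost with reference gene centring (adjusted p = 0.0545 for GLK2 and 0.254 for GLK1). HY5, a factor of light signalling, did not pass (0.23, adjusted p = 0.212), but did in the paired fit with the replicate block (adjusted p = 0.0464) and with reference gene centring (0.47, adjusted p = 0.023).

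The sigma factor genes, whose proteins guide the plastid RNA polymerase to plastid photosynthesis genes, diverged. SIG5 (AT5G24120) stood at 6.33, 5.70 and 6.12 in H2O2, against 4.86, 4.52 and 4.51 in mock, and rose 2.67-fold (SE 0.17 log2, adjusted p = 0.000148). SIG4 and SIG2 fell 1.91-fold and 1.80-fold. SIG5 was the only 1 of the 6 sigma factor genes whose mean was higher in H2O2 on the deposited scaling, and with reference gene centring SIG1 also had a positive change (0.06), which did not pass.

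The isoforms of ferredoxin and FNR known from roots moved opposite to the leaf FNR genes. FD3 (AT2G27510) had 9.28, 9.57 and 9.32 in H2O2, against 8.96, 8.88 and 8.68 in mock, and rose 1.46-fold (SE 0.11 log2, adjusted p = 0.00248). RFNR1 (AT4G05390) and RFNR2 (AT1G30510) both rose 1.44-fold, with changes of 0.52 (adjusted p = 0.00536) and 0.53 (adjusted p = 0.00139). All 3 also rose with reference gene centring, by 0.77 to 0.79, where FNR1 and FNR2 had changes of -0.17 and -0.43. Among 2 plastid genome loci with a row, ATCG00580 fell 1.92-fold and ATCG00020 did not pass (-0.35, adjusted p = 0.155).

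**Figure D5:**
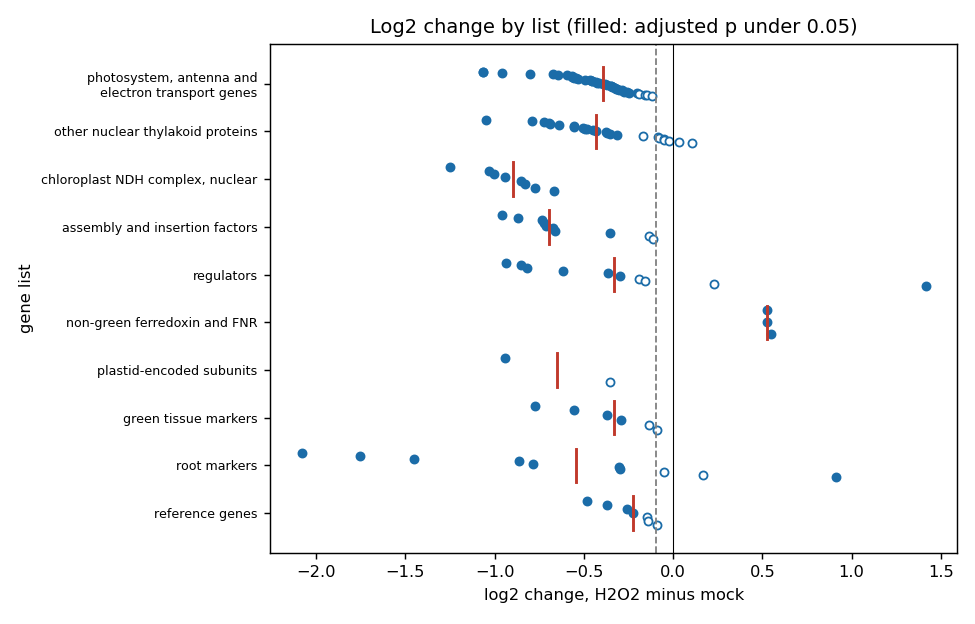
Log2 change (H2O2 minus mock) of each gene of the set and of the other lists, 1 row per list, filled where the adjusted p was under 0.05. Red bars are list medians and the dashed line the median of all probe sets (-0.10). The NDH genes lie furthest left of the thylakoid lists and the 3 non-green ferredoxin and FNR genes lie right of 0.

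Many markers of green and of root tissue were lower too. Of all probe sets, 36.5% were called lower and 23.9% higher, and 18.0% and 40.5% with reference gene centring. Of 6 green tissue markers with a row, 4 fell (PRK by 0.78, SBPASE by 0.55, GAPB by 0.37 and RCA by 0.29) and 2 did not pass, and their summed linear signal was 17114 to 19032 in H2O2 and 21984 to 22487 in mock. With reference gene centring 2 of the 6 were lower, and RCA (-0.05) and GAPB (-0.12) lost their calls. Of 10 root markers, 7 fell, 1 rose and 2 did not pass, and their summed signal was 4593 to 5322 in H2O2 and 5939 to 6305 in mock. With reference gene centring 5 of the 10 were lower and 2 higher, CASP1 and MRN1 having lost their calls and CASP4 having passed as higher (0.41, adjusted p = 0.0239). PRP3, XTH14 and AT1G30870 fell 4.23-fold, 3.38-fold and 2.74-fold. The root marker that rose was PER72 (AT5G66390), by 1.88-fold (limma adjusted p = 0.000505), while PYK10 (log2 change -0.05) and CASP4 did not pass. The lowest root markers were MRN1, at 3.65 in H2O2 and 3.95 in mock, and CASP4, at 4.44 in H2O2 and 4.28 in mock, and none was at 0. The part of organ or cell makeup in the decreases was not tested.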

How the data were processed

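The authors deposited log2 values of 6 arrays, made with GCRMA per the submitters' processing notes. GCRMA subtracts a background modelled from probe base content, as usually run brings the arrays to a common distribution, and gives 1 value per probe set. A shift shared by most transcripts would then be reduced. That the scale is log2 was inferred from the range of values. The chip and the GCRMA version were not given in the sources used. The number of arrays limits the precision. Members and lists were chosen with earlier results of these data known.

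Groups came from the labels. Loci with a mean under the 30th percentile (3.79) were left out (6429). The rest were tested in limma 3.58.1 (R 4.3.3, lmFit and eBayes, Benjamini-Hochberg over 15001 loci, threshold 0.05). Complexes are described by counts and medians. Paralogue differences used exact permutation tests. Named genes were all members, up to 3 per other list with the largest changes that passed, and GLK1, GLK2 and HY5. RCA, PYK10, PER72, MRN1, CASP1, CASP4, SIG1, SIG3, SIG6 and ATCG00020 fall outside that rule and were named after their values were seen. Symbols are those of the lists. A RefSeq table of assembly TAIR10.1 held all 49 loci, some under another symbol. Replicate numbers are shared between groups, and deviations of same-numbered arrays correlated at 0.19, 0.21 and 0.21, so the numbers were taken to pair the arrays. The main fit and the main permutation tests did not use that pairing. The fit with that block was an alternative, beside other filters, floors, scalings, priors, weights and single omissions. The script was tested on simulated data. Figures used matplotlib 3.10.9.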

Additional observations from a re-analysis of the deposited data

How the results depend on the processing

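The count of 37 decreases moved most with scaling. With arrays centred on the reference genes 14 were lower (6074 probe sets were higher and 2693 lower, so that 69.3% of calls were higher, against 39.5% on the deposited scaling), with quantile normalization 24, and with median centring 38 (3414 probe sets higher and 5833 lower). Complex medians after reference gene centring were -0.095 for LHCI, -0.0036 for LHCII, -0.19 for the minor antenna, -0.088 for PSI, -0.17 for PSII, -0.17 for electron transport and -0.50 for ATP synthase. After quantile normalization they were -0.16 for LHCI, -0.14 for LHCII, -0.39 for the minor antenna, -0.21 for PSI, -0.30 for PSII, -0.34 for electron transport and -0.64 for ATP synthase. Genes that turned positive with reference gene centring were LHCB2.3 (0.10), LHCB5 (0.054), PSAK (0.044), PSBR (0.086), PSBW (0.12) and PETC (0.00014). With quantile normalization these were LHCB5 (0.045) and PSBW (0.030), none of them passing. LHCB2.3 ranged from -0.247 to 0.0057 over single omissions, the highest without H2O2 replicate 3. LHCB4.3 minus LHCB4.1 turned to -0.087 with quantile normalization, and PSAE2 minus PSAE1 ranged from -0.101 to 0.027 over single omissions (0.027 without mock replicate 3 and 0.0022 without H2O2 replicate 1). PETC, PSBS, PSAN and LHCB4.3 lost their calls without moderation. The replicate block changed no call among the 41 genes, and with it the exact test of a pair cannot go below 0.25. Under it 38.0% of all probe sets were lower. Over single omissions 3248 to 3388 probe sets were higher and 4641 to 5304 lower. The cause of these shifts was not tested.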
